A study of Mus musculus with 19 samples.

Results

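The BCL2 family sets whether a cell opens its mitochondrial outer membrane and dies by apoptosis. Of this family, 10 genes were followed here, named in a fixed list of pro- and anti-apoptotic members and found by their Ensembl identifiers among the 51912 genes of each count file. All 10 had at least 1 count. They fell into 4 BH3-only genes (*Bbc3*, *Pmaip1*, *Bcl2l11*, *Bid*), 3 effectors (*Bax*, *Bak1*, *Bok*) and 3 anti-apoptotic genes (*Bcl2*, *Bcl2l1*, *Mcl1*). In cKO-E cortex, *Bbc3* and *Pmaip1* rose and *Bax* was higher at a looser threshold, whereas in dKO-E cortex, where *Trp53* was floxed as well, both lay in or near their ctrl range.

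BH3-only proteins sense stress, and they act by binding other members of the family. Anti-apoptotic members hold the effectors BAX and BAK1 in check, and BH3-only proteins relieve that hold or engage the effectors directly. Once freed, the effectors form pores through which cytochrome c leaves the mitochondrion, which leads to caspase activation. PUMA, encoded by *Bbc3*, and NOXA, encoded by *Pmaip1*, are well-known transcriptional targets of p53, the product of *Trp53*, and *Bax* is another. Neural progenitors of the embryonic cortex are sensitive to DNA damage and are known to die by this route.

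The samples were neocortex from mouse embryos at E13.5, on a mixed C57BL/6 and 129 background, each embryo giving 1 RNA-seq library. The 5 cKO-E embryos were *Emx1*-Cre/+;*Ino80* fl/fl. The 7 dKO-E embryos carried the same 2 alleles and in addition *Trp53* fl/fl. The 7 ctrl embryos are given as controls, and their alleles are not stated in the sources used here. *Emx1*-Cre recombines in progenitors of the cortical excitatory lineage and spares interneurons, microglia and vessels, so every mutant library also holds RNA of cells with intact alleles. Labels place the ctrl embryos in 4 litters, the cKO-E embryos in 5 and the dKO-E embryos in 2, and no litter held both cKO-E and dKO-E embryos. Females numbered 4 of 7 in ctrl, 4 of 5 in cKO-E and 2 of 7 in dKO-E, and sequencing batch 3 held 1 dKO-E library alone. A difference between these 2 genotypes therefore cannot be told apart from a difference between litters. In tissue libraries, fewer cells of a type and less RNA per cell cannot be told apart either.

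Libraries held from 820915 to 8095810 deduplicated counts on genes (median 2952788). Levels are given as CPM, counts scaled to a common library total. Depending on the library, 3 counts were 0.371 to 3.65 CPM, so the lowest members were close to the counting limit in shallow libraries. The shallowest 3 libraries, cKO-E D, dKO-E E and dKO-E G, held under 1200000 counts. *Ino80* ranged from 109.8 to 132.8 CPM in ctrl, from 146 to 181 in cKO-E and from 159.8 to 199.8 in dKO-E, so the sum over the whole gene was higher in both mutants. The floxed exons are some of its exons, and these gene-level counts do not check the deletion. *Trp53* ranged from 36.7 to 49.9 CPM in ctrl, from 34.0 to 43.9 in cKO-E and from 26.9 to 42.4 in dKO-E. Against ctrl, *Trp53* in dKO-E differed by -0.36 on the log2 scale (SE 0.10, quasi-likelihood test of edgeR, adjusted p = 0.0196), which did not pass 0.001. These gene-level counts, taken over cells with and without Cre, do not check the *Trp53* deletion either. The cortex markers *Emx1*, *Emx2* and *Lhx2* were detected in all 3 groups.

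The promoters were searched because *Bbc3*, *Pmaip1* and *Bax* are known p53 targets. RefSeq promoter windows on GRCm38, from 250 bases before to 50 after a start, were found for 9 members, in 14 windows, and *Pmaip1* was not among them. The p53 half-site consensus, which reads the same on both strands, was present in 8.36% of 32851 windows of all genes and in 1 member window, that of *Bax*. A pair of half-sites without a spacer, with both cores intact and up to 3 mismatches, was present in 0.572% of all windows and in 1 member window, that of *Bbc3*. The limit of 3 mismatches was chosen with these sequences in view, and a match is a description of the letters only. Both matches are printed 5′ to 3′ on the strand of the gene, in 30 bases, with the match in capitals.
*Bbc3*, chr7:16309481-16309510, + strand, match starting 97 bases before the start: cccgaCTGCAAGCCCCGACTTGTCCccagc
*Bax*, chr7:45467080-45467109, - strand, match starting 201 bases before the start: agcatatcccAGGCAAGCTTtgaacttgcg
Neither match overlaps an exon in GENCODE M21. The *Bbc3* match carries 3 mismatches to the pair of half-sites.

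The first question was how much of each member was present in ctrl cortex. Levels were compared between genes as CPM per kilobase (kb) of merged exon length, with n = 7 embryos. The anti-apoptotic genes lay highest. *Mcl1*, a short-lived guardian against BAK1, was at 23.7 ± 1.99 CPM per kb (SD). *Bcl2*, the founding member of the family, was at 21.04 ± 1.42 (SD), and *Bcl2l1*, which encodes BCL-XL, at 19.05 ± 1.959 (SD). The ranges of *Mcl1* and *Bcl2*, and of *Bcl2* and *Bcl2l1*, overlapped, although *Mcl1* exceeded *Bcl2*, and *Bcl2* exceeded *Bcl2l1*, in 6 of 7 embryos each.

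A gap followed, since the lowest *Bcl2l1* value, 15.98 CPM per kb, was above the highest *Bax* value, 8.36. *Bax* was at 6.11 ± 1.49 CPM per kb (SD, n = 7) and *Bok*, an effector-like member, at 4.69 ± 0.92 (SD, n = 7). The BH3-only gene *Bcl2l11*, which encodes BIM, was at 3.16 ± 0.58 (SD, n = 7) and the effector *Bak1* at 2.47 ± 0.39 (SD, n = 7). *Bid*, which links death receptors to mitochondria, was at 1.78 ± 0.27 CPM per kb (SD, n = 7). Each of these overlapped in range with the next in the order. *Bbc3* was at 0.87 ± 0.37 CPM per kb (SD, n = 7), below *Bid* in 7 of 7 embryos. *Pmaip1* was lowest, with 0 to 1 count in each ctrl library and 2 counts in all.

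**Figure D1:**
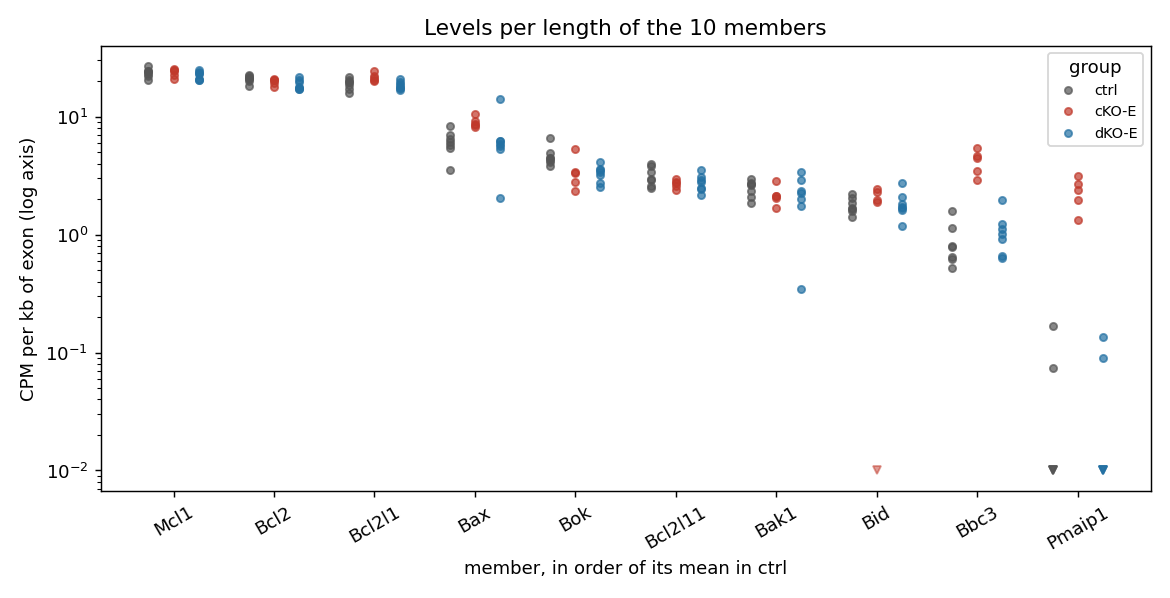
CPM per kb of exon of each member in each embryo, on a log axis, with members ordered by their ctrl mean and 1 point per embryo. Triangles at the bottom mark embryos at 0 counts. *Mcl1*, *Bcl2* and *Bcl2l1* sit together above the rest in all 3 groups, while *Bbc3* and *Pmaip1* are higher in cKO-E than in the other groups.

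The next comparison asked which members changed after deletion of *Ino80*. Of the 10 members, all tested in cKO-E against ctrl, 2 were higher at an adjusted p under 0.001 and 0 were lower. Over all 11660 genes tested, 1.06% were higher and 2.32% lower at this threshold. The 2 members called, *Bbc3* and *Pmaip1*, passed the filter on low counts only through cKO-E. For such genes a call of higher is tied to the filter, so the count and these shares are not a like comparison. At an adjusted p under 0.05, 3 members were higher and 0 lower, against 7.31% and 9.88% of all genes. Before adjustment, 4 members were higher and 1 lower at 0.05 in edgeR, and DESeq2 gave 3 higher and 0 lower after adjustment. Shares of all genes are not given for the counts before adjustment or from DESeq2, so these counts stand without a comparison. Without the 3 shallowest libraries, of which only cKO-E D is in this comparison, the count at 0.001 was again 2. All cKO-E libraries were above all ctrl libraries for 2 members, as for 3.19% of all genes. The median log2 fold change of the members was 0.09, and that of all genes tested was 0.02.

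Among the BH3-only genes, *Bbc3* had 11.5, 9.86, 7.29, 6.18 and 9.45 CPM in the cKO-E embryos A to E. Its ctrl values had a lowest of 1.11, a median of 1.66 and a highest of 3.36 CPM. Each cKO-E embryo thus lay above each ctrl embryo. The mean was 8.86 ± 2.13 CPM (SD, n = 5) against 1.85 ± 0.79 (SD, n = 7), and the log2 fold change was 2.17 (SE 0.25, edgeR adjusted p = 1.89e-05). The fitted values rest on 123 counts in cKO-E and 43 in ctrl. Within sequencing batch 1 the *Bbc3* log2 fold change was 2.01 (edgeR adjusted p = 0.000443), and within batch 2 it was 2.68 (edgeR adjusted p = 0.0103). In females alone it was 2.18 (edgeR adjusted p = 0.00087).

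*Pmaip1* had 26, 23, 10, 6 and 16 counts in cKO-E embryos A to E, against 1 count in each of ctrl B and ctrl H and 0 in the other 5 ctrl libraries. On the CPM scale, these were 8.57, 6.48, 3.65, 7.41 and 5.40 in cKO-E. No cKO-E value overlapped with ctrl. Over the groups, 81 counts stood against 2, a ratio of normalized counts of 64.5 (exact 95% interval 17.3 to 542, which covers counting error only). The fitted log2 fold change of 5.48 depends on the prior count, and its edgeR adjusted p was 1.36e-06. Within batch 1 the adjusted p from edgeR was 5.81e-05. In batch 2 the gene was removed by the filter on low counts, and its libraries there had 6 and 16 counts in cKO-E against 0, 1 and 0 in ctrl.

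The other 2 BH3-only genes did not pass. *Bcl2l11* had 21.6 ± 1.80 CPM in the 5 cKO-E embryos (SD) against 25.4 ± 4.69 in the 7 ctrl embryos (SD), so that its log2 difference was -0.19 (SE 0.13, edgeR adjusted p = 0.367). *Bid* had 0 counts in cKO-E D, the shallowest library, where 3 counts are 3.65 CPM, and between 6.75 and 8.74 CPM in the other 4 cKO-E embryos. Its log2 fold change was 0.18 (SE 0.27, edgeR adjusted p = 0.716), and exons of *Bcl2l13* on the other strand cover 17.7% of its exon length.

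Among the effectors, *Bax* was at 14.5, 13.5, 16.8, 13.6 and 12.8 CPM in cKO-E embryos A to E. In ctrl its lowest value was 5.56, its median 9.65 and its highest 13.2 CPM. Only ctrl A, the highest, reached above a cKO-E embryo, namely E. The log2 fold change was 0.54 (SE 0.17, edgeR adjusted p = 0.0338), which passes 0.05 and not 0.001. It missed 0.05 when any of ctrl C, ctrl D, cKO-E A, cKO-E B, cKO-E C or cKO-E D was left out, with edgeR adjusted p between 0.0501 and 0.106. The *Bax* log2 fold change was 0.49 within batch 1 (edgeR adjusted p = 0.0925), 0.61 within batch 2 (edgeR adjusted p = 0.373) and 0.33 in females alone (edgeR adjusted p = 0.297). It also missed 0.05 in 1 fit over all 19 libraries (edgeR adjusted p = 0.115) and with every gene of at least 1 count kept (edgeR adjusted p = 0.0615). Exons of *Gm45808*, with 19 counts in all libraries together, cover 12.2% of the *Bax* exon length.

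*Bok* was at 4.29, 6.20, 5.11, 9.88 and 6.07 CPM in cKO-E and at a lowest of 7.09, a median of 8.23 and a highest of 12.2 in ctrl. In 4 of 5 cKO-E embryos it was under every ctrl embryo, and cKO-E D lay within the ctrl range. Its log2 fold change was -0.54 (SE 0.20, edgeR adjusted p = 0.0807). Without cKO-E D, the shallowest library, it was -0.64 and passed 0.05 (edgeR adjusted p = 0.0385), as it did under the likelihood-ratio test (edgeR adjusted p = 0.0490), whereas DESeq2 gave an adjusted p of 0.132. *Bak1* had 5.22 ± 1.05 CPM (SD, n = 5) against 5.94 ± 0.95 in ctrl (SD, n = 7), which is -0.19 on the log2 scale (SE 0.20, edgeR adjusted p = 0.577). Exons of *Ggnbp1* on the other strand cover 18.2% of its exon length, and the strand setting of the counting is not given in the sources used here.

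No anti-apoptotic gene passed 0.05 in cKO-E against ctrl. *Bcl2l1* had 92.97, 101.2, 98.5, 93.9 and 112 CPM in cKO-E and a lowest of 73.3, a median of 89.7 and a highest of 99.5 in ctrl, so the groups overlapped. Its log2 fold change was 0.18 (SE 0.08, edgeR adjusted p = 0.108). *Bcl2* changed by -0.10 on the log2 scale (SE 0.06, edgeR adjusted p = 0.305, 95% interval -0.22 to 0.02). *Mcl1* had a log2 fold change of -0.0089 (SE 0.07, edgeR adjusted p = 0.968, 95% interval -0.15 to 0.14). Each of the 3 genes had 67 or more counts in every library of this comparison, and their SEs were under those of the other members.

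**Figure D2:**
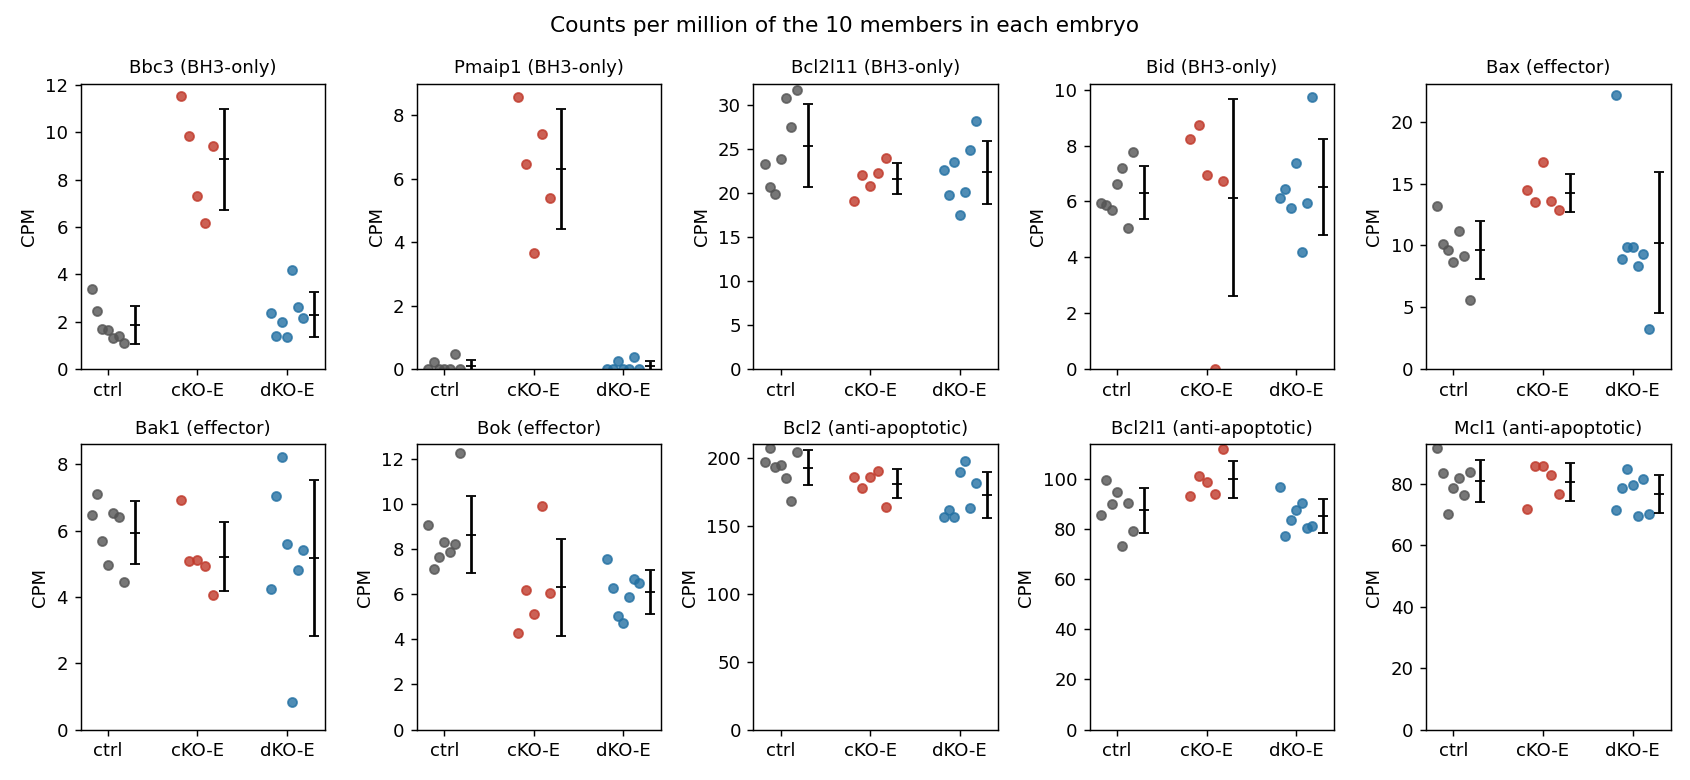
CPM of each member in each embryo, with 1 panel per gene, 1 point per embryo and the mean with its SD at the right of each group. *Bbc3* and *Pmaip1* in cKO-E sit above all other embryos, while the anti-apoptotic genes overlap between groups.

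Markers of other cells moved in the same embryos. The summed CPM of 14 microglial genes ranged from 7.24 to 18.7 in ctrl, from 36.1 to 48.1 in cKO-E and from 10.04 to 14.1 in dKO-E, so cKO-E did not overlap with the others. In cKO-E against ctrl 3 of these 14 were tested and 3 were higher at 0.05, against 7.31% of all genes tested. *Csf1r*, a receptor needed by microglia, had a log2 fold change of 2.14 (SE 0.33, edgeR adjusted p = 0.000278). *Csf1r* and *Mpeg1* passed the filter on low counts only through cKO-E, where they were high, so this count is tied to the filter. In dKO-E against ctrl, 1 of the 14 was tested. *Tyrobp* was at 0 to 1 count in ctrl and 0 to 3 in cKO-E. The sum of 7 ventral or interneuron genes was 48.6 to 94.1 CPM in cKO-E, 8.23 to 64.8 in ctrl and 21.4 to 51.8 in dKO-E. Their part in the *Bbc3* and *Pmaip1* values was not tested. *Lhx2*, a transcription factor of cortical identity, was lower in cKO-E than in ctrl, with a log2 fold change of -0.66 (SE 0.09, edgeR adjusted p = 7.51e-05).

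The third comparison asked what was left of these changes when *Trp53* was deleted together with *Ino80*. In dKO-E against ctrl, 8 of 10 members were tested, because *Bbc3* and *Pmaip1* fell under the filter on low counts. At 0.001, 0 were higher and 0 lower, against 0.246% and 2.34% of the 11381 genes tested. At 0.05, 0 members were higher and 1, *Bok*, was lower, against 5.45% and 10.01% of all genes. Before adjustment, 0 members were higher and 2 lower in edgeR, *Bok* and *Bcl2*, and DESeq2 gave 0 and 0 after adjustment at 0.05. For these counts too, no shares of all genes are given. The ctrl embryos are the same ones as in the comparison with cKO-E.

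*Bbc3* had a lowest of 1.34, a median of 2.16 and a highest of 4.18 CPM in dKO-E, in the range of ctrl except for embryo E. From 48 counts in dKO-E and 43 in ctrl, the ratio of normalized counts was 0.950 (exact 95% interval 0.616 to 1.47). With every gene of at least 1 count kept, its log2 fold change was 0.039 (SE 0.39, edgeR adjusted p = 0.966). *Pmaip1* was at 2 counts in dKO-E C, 1 in dKO-E F and 0 in the other 5 dKO-E embryos. With 3 counts against 2, the ratio was 1.28, and its exact 95% interval of 0.146 to 15.3 leaves a wide range.

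*Bok* in dKO-E had a lowest of 4.70, a median of 6.25 and a highest of 7.54 CPM, and only dKO-E A was above the lowest ctrl embryo, at 7.09. The log2 fold change was -0.54 (SE 0.16, edgeR adjusted p = 0.0324). It no longer passed 0.05 without any of ctrl A, ctrl D, ctrl I, dKO-E C, dKO-E D or dKO-E E, with edgeR adjusted p between 0.0519 and 0.0818. The *Bok* log2 fold change was -0.51 within batch 1 (edgeR adjusted p = 0.121), -0.51 within batch 2 (edgeR adjusted p = 0.552), -0.29 in females (edgeR adjusted p = 0.621) and -0.67 in males (edgeR adjusted p = 0.120). DESeq2 gave an adjusted p of 0.0615. *Bok* had a near-equal log2 fold change against ctrl in cKO-E and dKO-E, at -0.54 in each. *Bcl2* had a log2 fold change of -0.18 (SE 0.06, edgeR adjusted p = 0.0619). For *Bax*, *Bak1*, *Bcl2l1*, *Bcl2l11*, *Mcl1* and *Bid*, the log2 fold changes lay between -0.18 and 0.09, and none passed 0.05.

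The precision of these 6 differed with the level. The 95% interval was -0.20 to 0.07 for *Bcl2l1* and -0.20 to 0.07 for *Mcl1*, on the log2 scale. *Bcl2l11* had an interval of -0.43 to 0.07, and its dKO-E values of 17.5 to 28.1 CPM lay across the ctrl values of 19.9 to 31.7. For *Bid* it was -0.29 to 0.36, for *Bax* -0.38 to 0.55 and for *Bak1* -0.49 to 0.41. *Bak1* ranged from 0.84 CPM, a single count in dKO-E E, to 8.23 in dKO-E, against 4.45 to 7.09 in ctrl. *Bcl2* ranged from 156 to 197 CPM in dKO-E and from 168 to 207 in ctrl, and the groups overlapped.

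**Figure D3:**
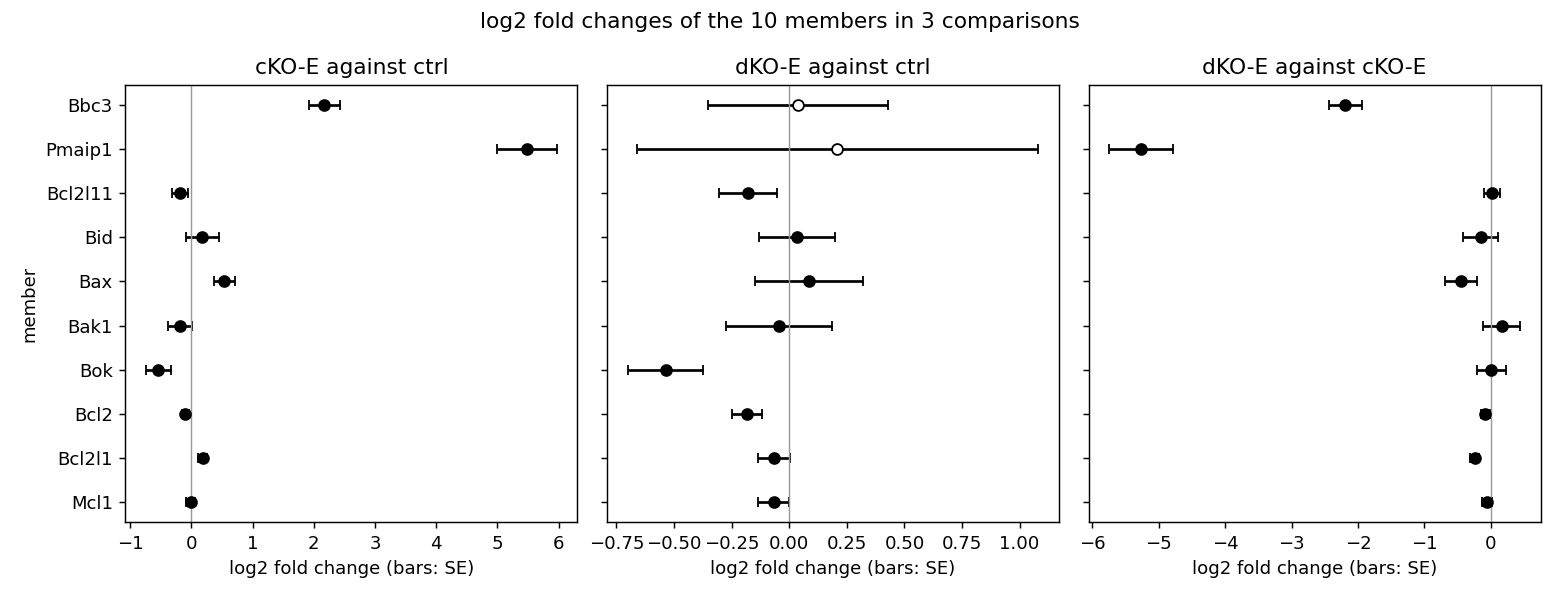
log2 fold changes of the members in the 3 comparisons, with SE as bars. Open symbols are *Bbc3* and *Pmaip1* in dKO-E against ctrl, taken from the fit that kept every gene of at least 1 count. In the outer panels *Pmaip1* lies farthest from 0, at 5.48 and -5.27.

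The genotypes were also compared directly, dKO-E against cKO-E, which tests the difference itself. At 0.05, 3 members were lower and 0 higher, against 9.42% and 5.59% of 11746 genes tested. Of these members, *Bbc3* and *Pmaip1* passed the filter on low counts only through cKO-E, so their calls as lower are tied to it. Before adjustment, edgeR also gave 3 lower and 0 higher, as did DESeq2 after adjustment, again without shares of all genes to set beside them. All dKO-E embryos were below all cKO-E embryos for 2 members, as for 4.64% of all genes. *Bbc3* was at 2.29 ± 0.95 CPM (SD, n = 7) in dKO-E, and it differed from cKO-E by -2.19 on the log2 scale (SE 0.25, edgeR adjusted p = 7.72e-06). Within batch 1 it was -2.46 (edgeR adjusted p = 0.000518), and within batch 2 it was -1.77 (edgeR adjusted p = 0.106). *Pmaip1* had 3 counts in dKO-E against 81 in cKO-E, a ratio of 0.0198 (exact 95% interval 0.0040 to 0.0600, edgeR adjusted p = 5.75e-07). Microglial *Mpeg1*, which likewise passed the filter only through cKO-E, also fell, with a log2 fold change of -2.84 (SE 0.32, edgeR adjusted p = 6.66e-06).

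*Bcl2l1* was the third member lower in dKO-E. It had a lowest of 77.0, a median of 83.3 and a highest of 96.6 CPM there, and these values overlapped with those of cKO-E, of which the lowest was 92.97. The log2 fold change was -0.24 (SE 0.07, edgeR adjusted p = 0.0288). It missed 0.05 when any of cKO-E B, cKO-E C, cKO-E E, dKO-E B, dKO-E C or dKO-E F was left out, with edgeR adjusted p between 0.051 and 0.091. In all 27 alternatives it stayed negative, and in 14 of them it did not pass.

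*Bax* had a log2 fold change of -0.45 (SE 0.24, edgeR adjusted p = 0.231). One dKO-E embryo, A, was at 22.1 CPM, whereas the others lay between 3.24 and 9.85 CPM, below all cKO-E embryos. Without dKO-E A the log2 fold change was -0.67 (edgeR adjusted p = 0.0119). The adjusted p of the other 6 members exceeded 0.5, with log2 fold changes between -0.15 and 0.16.

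Summed over roles, the composition of the family shifted in cKO-E. The BH3-only genes made up 7.05 ± 0.76% (mean ± SD over 7 embryos) of the summed CPM per kb of the 10 members in ctrl. Their share was 12.04 ± 2.27% over the 5 cKO-E embryos, compared with 7.42 ± 1.25% over the 7 dKO-E embryos. *Bbc3* and *Pmaip1* together were 15.7 ± 6.45% of the BH3-only sum in ctrl, whereas they were 59.4 ± 6.36% of it in cKO-E. In dKO-E this share was 19.3 ± 7.69%. The anti-apoptotic sum was 63.8 ± 3.38 CPM per kb in ctrl, 65.0 ± 2.12 in cKO-E and 59.8 ± 1.97 in dKO-E, again as mean ± SD. These sums are given as a description without a test.

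**Figure D4:**
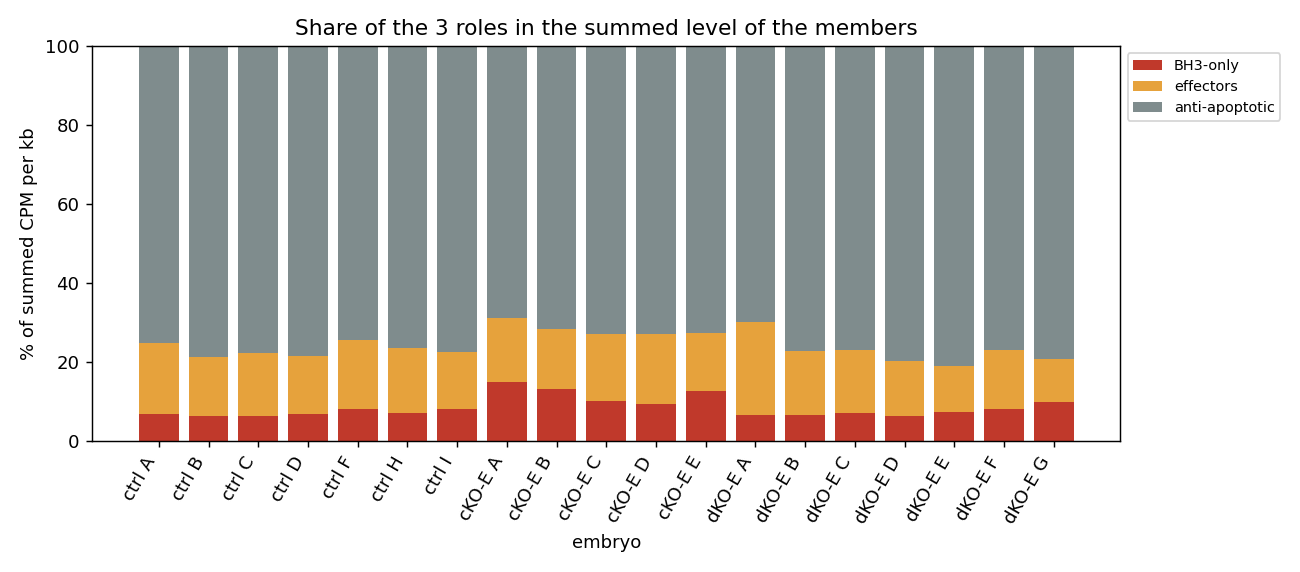
Percent of the summed CPM per kb of the 10 members that falls on BH3-only, effector and anti-apoptotic genes, with 1 bar per embryo. The BH3-only share is 9.33% or more in the 5 cKO-E embryos and 8.05% or less in the 7 ctrl embryos, while dKO-E G reaches 9.92%.

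Genes downstream and upstream of the family were counted from fixed lists. Of 11 caspase cascade genes, 10 were tested in cKO-E against ctrl. *Apaf1*, the scaffold of the apoptosome, had a log2 fold change of 0.41 (SE 0.07, edgeR adjusted p = 0.000963), which missed 0.001 in 20 of 28 alternatives. *Xiap*, a caspase inhibitor, was lower in both mutants, at -0.28 in cKO-E (SE 0.06, edgeR adjusted p = 0.0033) and -0.22 in dKO-E (SE 0.05, edgeR adjusted p = 0.0062).

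Of 11 regulators of members, all were tested in cKO-E against ctrl, and 2 were higher and 1 lower at 0.05, against 7.31% and 9.88% of all genes. *Trp73*, a p53 relative, had a log2 fold change of 0.96 (SE 0.17, edgeR adjusted p = 0.00083), which missed 0.001 in 17 of 28 alternatives. *Foxo3*, a transcription factor that drives *Bcl2l11* and *Bbc3* in other settings, was at 0.50 (SE 0.07, edgeR adjusted p = 0.000117) and fell in dKO-E against cKO-E by 0.87 (SE 0.08, edgeR adjusted p = 4.84e-07). In dKO-E against ctrl *Foxo3* had a log2 fold change of -0.37 (SE 0.07, edgeR adjusted p = 0.0013), so its dKO-E mean of 68.1 CPM was also below the ctrl mean of 86.7. Of 15 other family genes, 6 were tested in cKO-E against ctrl and 0 passed 0.05, with 0 under 0.05 before adjustment in edgeR and 0 in DESeq2. In dKO-E against ctrl 2 of 6 were higher at 0.05, against 5.45% of all genes, *Bcl2l12* at 0.60 (SE 0.16, edgeR adjusted p = 0.0187) and *Bnip3l* at 0.31 (SE 0.09, edgeR adjusted p = 0.0236). Without dKO-E B, *Bcl2l12* was at 0.50 and missed 0.05 (edgeR adjusted p = 0.0503). Of 7 outer membrane partners, *Mff* was higher in cKO-E at 0.24 (SE 0.07, edgeR adjusted p = 0.0253) and in dKO-E at 0.25 (SE 0.08, edgeR adjusted p = 0.0452), in comparisons that share the ctrl embryos. The *Mff* call in cKO-E was lost without ctrl A, cKO-E A or cKO-E E, with edgeR adjusted p up to 0.0684. The call in dKO-E was lost without any of ctrl A, C, D, H or I or dKO-E C, D, E or F, with edgeR adjusted p up to 0.118.

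The genes most like *Bbc3* over the 19 libraries were ranked by Pearson's r of log2 CPM among 12047 genes, as a description. They were *Nrip3* (0.913), *Sorcs2* (0.909), *Ccng1* (0.905), *Pmaip1* (0.893) and *Ntng1* (0.884). For *Pmaip1* they were *Spp1* (0.975), *Cntn5* (0.961), *Aen* (0.943), *Galntl6* (0.938) and *Ntng1* (0.934). The points share their genotype, and the r of the deviations from the group means was lower. For *Bbc3* it ran from 0.11 with *Pmaip1* to 0.66 with *Ccng1*. For *Pmaip1* and its listed genes it was 0.67 with *Spp1*, 0.54 with *Ntng1*, 0.17 with *Cntn5* and *Aen* and 0.12 with *Galntl6*.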

How the data were processed

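E13.5 neocortex of 19 embryos was profiled by UMI RNA-seq with Click-seq after depletion of ribosomal RNA. The authors trimmed adapters with cutadapt 1.13, aligned reads to GRCm38 with STAR 2.5.2a, removed duplicates with UMI-tools 0.5.3 and counted reads per gene with HTSeq 0.6.1p1. The values they deposited are counts, whole numbers without normalization. The exact intervals of count ratios and the floor of 3 counts cover counting error only. The 95% intervals of log2 fold changes come from the SE of the fit, so they also hold the spread between embryos. They use a normal quantile, which ignores how few embryos there were, and so are narrower than the test allows. For *Mcl1* in dKO-E against ctrl they also leave out the Poisson test named below.

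Embryos were grouped by genotype as labelled, and nothing else was used to group them. Each pair of groups was tested in its own fit without covariates with edgeR 4.0.16 (quasi-likelihood test, filterByExpr with a minimum count of 10, TMM factors) in R 4.3.3, with Benjamini-Hochberg adjustment across every gene in the fit. Thresholds were 0.001 against ctrl and 0.05 between mutants. The SE is the log2 fold change over the square root of F, and p was bounded below by a Poisson test, which matters for *Mcl1*. CPM used TMM factors over all libraries, and log2 CPM a prior count of 2. Positions and exon lengths came from GENCODE M21, where 51633 of 51912 identifiers were found. Replicate p values measure the spread between embryos. Littermates were counted as separate embryos, so these p values do not set apart the spread between litters. The 7 dKO-E embryos came from 2 litters, of which only litter 1 also held ctrl embryos. Alternatives covered another test or tool (DESeq2 1.42.0), other factors and filters, batch, sex and litter, and each embryo left out. Figures used Python with matplotlib. The tests were run on simulated counts before use.

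The 10 members and all lists were chosen with earlier results of these data known. All members were named, the likeness rule took the 5 genes with the largest r, and other genes were named where they passed 0.05, or else to describe the samples (*Tyrobp* and the targeted genes) or an overlap with the exons of a member. Results of some listed genes are not reported here. Chromatin data and single-exon coverage were not analysed here.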

Additional observations from a re-analysis of the deposited data

Results flagged for a closer look

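Among 30 sets of values, made of 10 members in 3 groups, 3 held an embryo far from the others by Dixon's test, which chance gives in about 1 of 20 sets. *Bax* was at 22.1 CPM in dKO-E A, from 47 counts, whereas the next embryo was at 9.85. *Bid* was at 0 CPM in cKO-E D, a shallow library, whereas the next embryo was at 6.75. *Bok* was at 12.2 CPM in ctrl I, from 22 counts, whereas the next was at 9.04. Neither depth nor handling was tested as a cause.

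In the direct test of dKO-E against cKO-E, 3 members were lower at 0.05, against 9.42% of the 11746 genes tested. Of these members, *Bbc3* and *Pmaip1* passed the filter on low counts only through cKO-E, so their calls are tied to it. No group carried the *Trp53* deletion alone. The log2 fold change was -2.19 for *Bbc3*, -5.27 for *Pmaip1* and -0.24 for *Bcl2l1*. *Bcl2l1* had no called difference in cKO-E against ctrl (edgeR adjusted p = 0.108), and its difference between the mutants missed 0.05 in 14 of 27 alternatives. For these, the 2 genotypes share no litter, so genotype and litter cannot be told apart.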

How the results depend on the processing

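The number of members called in cKO-E against ctrl was 2, and it became 0 when every library had to hold at least 10 counts of a gene, which left out *Bbc3* and *Pmaip1*, and 0 in sequencing batch 2 alone; it stayed at 2 when any embryo was left out. In dKO-E against ctrl it was 0, and 1 at a false discovery rate of 0.05. In dKO-E against cKO-E, where the threshold was 0.05, it was 3. It became 1 with at least 10 counts in every library and 0 in batch 2 alone. When embryos were left out, it ranged from 2 to 4. Over all genes, the number called ranged from 30 to 2004 in cKO-E against ctrl (394), from 0 to 1759 in dKO-E against ctrl (294) and from 305 to 2448 in dKO-E against cKO-E (1763). Neither Bbc3 nor Pmaip1 changed sign between cKO-E and the other groups. Embryos share letters across groups, but letters did not pair them, since correlations of their deviations ran from -0.41 to 0.17. With the letter as a replicate block, the number of members called was 2 in cKO-E against ctrl and 0 in dKO-E against ctrl, and *Bcl2l1* in dKO-E against cKO-E lost its call (log2 fold change -0.21). The order of levels in ctrl was the same under total counts or without any embryo, but 8 members changed rank on plain CPM.

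Members near 0 changed sign under some settings, and the cause was not tested. In cKO-E against ctrl, *Mcl1* became 0.012 with upper-quartile factors, 0.023 with total counts, 0.0037 with sex as a covariate and 0.094 with litter as a block, with -0.043 to 0.029 over embryos left out, and *Bid* became -0.40 in batch 2. In dKO-E against ctrl, *Bbc3* became -0.64 in litter 1 alone and -0.0025 in 1 fit over all libraries, and *Bax* -0.21 in batch 2, with -0.14 to 0.19 over embryos left out. *Bak1* became 0.048 with total counts, 0.038 with batch as a covariate, 0.025 in litter 1, 0.0036 with the replicate block, 0.11 in batch 1, 0.011 in males and 0.069 without the 3 shallow libraries, with -0.23 to 0.057 over embryos left out. *Bcl2l1* became 0.030 with total counts and 0.0016 in females, *Mcl1* 0.027 with total counts and *Bid* -0.038 in males, with -0.016 to 0.086 over embryos left out. In dKO-E against cKO-E, *Bax* became 0.060 in females, *Bak1* ran from -0.030 to 0.30 over embryos left out, and *Mcl1* became 0.0040 with total counts and *Bid* 0.47 in batch 2. *Bcl2l11* became -0.0010 with sex as a covariate, -0.031 with the block and -0.053 in females, with -0.028 to 0.081 over embryos left out. *Bok* became -0.0082 with the block and -0.10 in batch 2, with -0.096 to 0.11 over embryos left out. The alternative without the 3 shallow libraries was chosen after seeing the data. The lowest count in any library was 0 for *Pmaip1* and *Bid*, 1 for *Bak1*, 2 for *Bbc3*, 3 for *Bax* and 6 for *Bok*. Counts this low limit what can be said of these members.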
